A study of Homo sapiens with 10 samples.

Results

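The genes described here were the targets of the transcription factor NRF2 together with the antioxidant enzymes of the cell, in THP-1 macrophages treated with plant polyphenols. They were chosen by name, 42 genes in all, and 40 of them had a transcript cluster, which is the set of array probes that stands for a gene. AKR1B1 and PRDX5 had no cluster under their name and are not analysed here. The table held 33297 clusters, of which 21214 carried a gene symbol and were tested. AKR1C1 and GPX1 had more than 1 cluster and were read from their brightest.

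NRF2, encoded by NFE2L2, is held in the cytoplasm by KEAP1, which hands it to a ubiquitin ligase for degradation. Oxidants and electrophiles modify cysteines of KEAP1, and NRF2 then accumulates, enters the nucleus and binds the antioxidant response element together with a small MAF protein. Its targets make glutathione, supply NADPH, reduce quinones and thioredoxin, and couple glutathione to reactive compounds. Polyphenols with catechol or pyrogallol groups, which can be oxidised to quinones, are often described as activators of this pathway, and macrophages use it to limit damage from the oxidants they make themselves.

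THP-1 is a human monocytic leukemia cell line, and all arrays came from this one line. In all 4 groups the monocytes were first differentiated to macrophages with the phorbol ester PMA for 24 h and then treated for another 24 h. The control group received the solvent DMSO (n = 3, passages 6, 7 and 8). Punicalagin, an ellagitannin of pomegranate, was given at 10 µM (n = 3, passages 6, 7 and 8). Myricetin (n = 2) and quercetin (n = 2), each at passages 7 and 8, are flavonols, and myricetin carries an extra hydroxyl group on its B ring. The labels gave no dose for the flavonols, so differences between compounds below are differences between these treatments at doses that cannot be matched. Each replicate was a separate passage, and its values are log2 intensities, so that a difference of 1 is a 2-fold change. Groups of 2 or 3 arrays can lie apart by chance alone. The share of all clusters whose groups did not overlap is not given here, so overlap is only described below.

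Array medians lay between 5.14 and 5.25, and 32 of the 40 genes had a mean above the median cluster. The cells carried the monocyte markers CD68 (9.95 to 11.4) and CSF1R (10.0 to 11.5), whereas MRC1, a marker of some macrophages, was at 2.74 to 3.46 and below every array's lower quartile. Of the 6 measured markers of other lineages, 5 lay between 2.95 and 5.99, and PECAM1, which monocytes also carry, between 9.08 and 10.57. The DMSO array of passage 6 stood apart: over all clusters it correlated with the rest at 0.969 on average, whereas the other 9 arrays did so at 0.977 to 0.983. On it 28 of the 40 genes (70%) lay above the mean of the other DMSO arrays, with a median difference of 0.31, against 55.6% and 0.05 over all clusters tested. All 5 peroxiredoxins were among the 28, with a median difference of 0.54. Without this array the difference from DMSO changed sign or moved by over 1.5 times in 19 of the 40 genes for punicalagin, 22 for myricetin and 21 for quercetin. It changed sign in 6, 6 and 10 of the 40. Of all 21214 clusters tested, 12504, 13242 and 12204 changed sign or moved that much, and 3516, 3973 and 3438 changed sign.

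The core of the antioxidant response element, TGACNNNGC, was searched on both strands of RefSeq promoter windows (GRCh38.p14, 250 bases before to 50 after a start). It was present for 8 of the 34 genes that had a window (23.5%), namely GCLM, GSTO1, GSTP1, KEAP1, ME1, MGST1, PGD and TXNRD1, and for 16.1% of all 27305 genes with a window. Of these 8, GSTO1, PGD and TXNRD1 passed the main test of at least 1 comparison below and the others of none. For 5 of the 8 genes 1 site is printed, although TXNRD1 had 3 sites in its windows and ME1 and GSTO1 had 2 each. Each is printed on the strand that holds the core, which is in capitals with 10 bases on each side. Distances are counted from the base of the core farthest upstream of the gene.
GCLM, chr1:93909446-93909474, 34 bases before the start: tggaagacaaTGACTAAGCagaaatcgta
ME1, chr6:83431170-83431198, 137 bases before the start: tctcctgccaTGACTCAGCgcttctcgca
TXNRD1, chr12:104286920-104286948, 102 bases before a start: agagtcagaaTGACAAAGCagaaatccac
GSTO1, chr10:104254656-104254684, 226 bases before the start: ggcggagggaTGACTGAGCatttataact
PGD, chr1:10398853-10398881, 201 bases before the start: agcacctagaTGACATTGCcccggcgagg
The ME1 site also holds the AP-1 motif TGACTCA, and the printed GCLM, TXNRD1 and PGD sites lie on the strand opposite to the gene. Of the other TXNRD1 sites 1 lay on the gene's own strand, 99 bases before another start. The genes with a window but without the core included SOD2, MGST3, GLRX, CAT and NQO1, and MGST2 had no window. All of these but NQO1 passed the main test of at least 1 comparison below and are named for that reason. The other genes without the core passed none, so the named genes do not give the share that passed. A match describes letters only and was not tested as a binding site.

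The first question was whether punicalagin, a phenolic antioxidant itself, moved the genes of this system in macrophages. It moved few of them past the test. Of the 40 genes 1 rose (MGST2) and 1 fell (SOD2), while 2.13% of all clusters tested rose and 0.198% fell. The median difference of the 40 genes was -0.08, against -0.05 over all clusters, and 28 of the 40 lay within 0.5 of 0 on the log2 scale. Those medians were 0.02 and -0.03 without the DMSO array of passage 6. The 95% intervals reached 0.45 to either side in the median gene and up to 0.76, so changes smaller than that lay within the error of 3 arrays a group. With passage as a block 4 genes passed, ME1 (lower) and GSTO1 (higher) being added. With all 10 arrays in 1 fit 5 passed, those and TXNRD1 (lower). The share of all clusters called in these 2 fits is not given here. Of the 10 monocyte and macrophage markers 8 had a positive difference, with a median of 0.56, 5 being higher and 1 lower at an unadjusted p under 0.05. One of them passed, FCER1G, which rose by 1.16, while the differences were 1.73 for CD14, 0.99 for CD68 (limma adjusted p = 0.0513) and 0.76 for CSF1R. Of the 6 markers of other lineages PECAM1, the 1 that monocytes carry, rose by 1.24. The part of these markers in the results was not tested. A bulk array cannot tell fewer cells carrying an RNA from less RNA per cell.

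Neither regulator passed the test. NFE2L2 stood at 9.11, 8.88 and 8.91 in DMSO and at 8.69, 9.14 and 8.60 after punicalagin, here and below in the order of passages 6, 7 and 8. The difference was -0.15 (95% interval -0.55 to 0.24, limma adjusted p = 0.81), and the groups overlapped. KEAP1 was at 7.17, 6.68 and 6.46 in DMSO and at 6.57, 7.11 and 6.63 after punicalagin. Its difference was 0.01 (95% interval -0.49 to 0.50). The differences were -0.08 for NFE2L2 and 0.21 for KEAP1 without the DMSO array of passage 6. NRF2 activity is set mainly by the stability of the protein, which arrays do not measure.

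MGST2, a membrane-bound glutathione transferase that can also make leukotriene C4, had the largest difference of the 40 genes. It was at 6.76, 6.82 and 6.88 in the DMSO arrays and at 8.59, 8.64 and 8.13 in the punicalagin arrays of the same passages. The groups did not overlap, and the lowest punicalagin array lay more than 1 log2 unit above the highest DMSO array. The rise was 1.63 (SE 0.17, 95% interval 1.25 to 2.01), or 3.10-fold, with a limma adjusted p of 0.00255 over all clusters. It was 1.60 without the DMSO array of passage 6 (adjusted p = 0.00339). The other transferases did not pass. GSTO1, the omega-class enzyme with thioltransferase activity, was at 5.99, 5.92 and 5.74 in DMSO and at 6.63, 7.18 and 6.47 after punicalagin, higher in 3 of 3 passages without overlap (0.88, SE 0.20, adjusted p = 0.0617). It passed without the punicalagin array of passage 8 (adjusted p = 0.0442). MGST3, the related membrane enzyme, was at 7.36, 7.30 and 7.60 against 7.73, 7.99 and 7.97 (0.48, SE 0.15, adjusted p = 0.194). MGST1 differed by 0.33 and GSTP1 by -0.11, and without the DMSO array of passage 6 by 0.59 and 0.10.

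SOD2, the manganese superoxide dismutase of mitochondria, fell. The DMSO arrays read 9.90, 9.59 and 9.48, the punicalagin arrays 8.27, 8.53 and 8.08. Every punicalagin array lay below every DMSO array, and the mean of 8.29 ± 0.22 (SD, n = 3) compared with 9.65 ± 0.22 (SD, n = 3). The gene fell by 1.36 on the log2 scale (SE 0.17, 95% interval -1.76 to -0.97), or 2.57-fold, with a limma adjusted p of 0.00596. Without the DMSO array of passage 6 the difference was -1.24 (adjusted p = 0.00766). SOD2 is also a known target of NF-kB, and 5 of 23 measured NF-kB-responsive inflammatory genes fell with it. These were TRAF1 by 1.25, BCL3 by 1.10, NFKBIA by 0.98, NFKB1 by 0.80 and TNFAIP2 by 0.79. Over all clusters tested 0.198% fell. The list was chosen with earlier results of these data known, so the count is description only. The median difference of these 23 genes was -0.51. Without the DMSO array of passage 6 it was -0.43, and NFKB1 and TNFAIP2 no longer passed (limma adjusted p = 0.0537 and 0.0591). They were also high on the DMSO array of passage 6 (20 of 23, median 0.62), and their part in the result for SOD2 was not tested. The cytosolic SOD1 differed by -0.30 and the secreted SOD3 by -0.01, neither past the test, and without that array by -0.14 and 0.06. Catalase, which removes hydrogen peroxide in peroxisomes, was at 7.17, 6.92 and 7.62 against 7.72, 8.18 and 7.36, with overlapping groups (0.52, SE 0.24, adjusted p = 0.455).

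None of the measured genes of glutathione synthesis, the thioredoxin system or the NRF2-induced reductases passed the test with punicalagin. Neither did ME1 or the pentose phosphate enzymes PGD, TALDO1 and TKT. All 4 genes of glutathione synthesis and recycling had a negative difference, with a median of -0.20. So had ME1, PGD, TALDO1 and TKT, with a median of -0.40, while 39.6% of all clusters tested were positive. PGD, TALDO1 and TKT were also high on the DMSO array of passage 6, by 0.31, 0.55 and 0.29 over the mean of the others. ME1 was not (0.005), and its difference was -0.90 without that array. The medians without it were -0.25 and -0.26. Malic enzyme ME1 was at 7.71, 7.79 and 7.62 in DMSO and at 6.75, 7.21 and 6.44 after punicalagin. The groups did not overlap, but the difference of -0.91 (SE 0.20) missed the threshold with a limma adjusted p of 0.0544. It passed without the punicalagin array of passage 7 (adjusted p = 0.0469). Thioredoxin reductase TXNRD1, which recharges thioredoxin with NADPH, was at 8.99, 8.71 and 8.44 against 7.87, 8.08 and 8.13, again without overlap (-0.69, SE 0.17, adjusted p = 0.0931). Sulfiredoxin SRXN1, which restores over-oxidised peroxiredoxins, was at 5.96, 5.68 and 5.09 against 4.93, 4.88 and 4.82 (-0.70, SE 0.21, adjusted p = 0.17). TXNRD1 differed by -0.55 and SRXN1 by -0.51 without the DMSO array of passage 6.

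The glutamate-cysteine ligase, which makes the first step of glutathione, has a modifier and a catalytic subunit. The modifier GCLM was at 5.54, 5.11 and 5.08 in DMSO and at 4.32, 5.08 and 4.55 after punicalagin. The groups overlapped narrowly, with 5.08 in each, and the difference was -0.59 (SE 0.22, limma adjusted p = 0.299). The catalytic GCLC was at 8.46, 8.59 and 8.29 against 8.07, 8.36 and 8.13 (-0.26, SE 0.15, adjusted p = 0.579). NQO1, the quinone reductase most often used as a readout of NRF2, was at 7.71, 7.01 and 7.55 against 6.70, 7.27 and 6.48 (-0.60, SE 0.25, adjusted p = 0.36). It was higher after punicalagin at passage 7 and lower at passages 6 and 8. GCLM differed by -0.44 and NQO1 by -0.46 without the DMSO array of passage 6. The pentose phosphate enzymes PGD (-0.30), TALDO1 (-0.50) and TKT (-0.21) and thioredoxin itself, TXN (-0.56), did not pass either. Their differences were -0.20 for PGD, -0.32 for TALDO1, -0.12 for TKT and -0.31 for TXN without the DMSO array of passage 6. AKR1C1, an aldo-keto reductase whose probes may also read the near-identical AKR1C2, differed by -0.33, and by -0.50 without it. The other cluster of AKR1C1, which was dimmer, differed by -0.15. OSGIN1, an oxidative stress-induced growth inhibitor, differed by 0.06, and its 10 arrays spanned only 0.34 in all.

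None of the 5 measured glutathione peroxidases or 5 peroxiredoxins changed past the test with punicalagin. Most of these peroxidases reduce hydrogen or lipid peroxides with glutathione, and the differences of the 5 ran from -0.37 (GPX4) to 0.32 (GPX1). GPX1 was at 9.87, 10.12 and 10.13 in DMSO and at 10.04, 10.78 and 10.28 after punicalagin, so the groups overlapped. The other cluster of GPX1, nearly as bright, differed by 0.16, and GPX7 differed by 0.18. GPX8 lay between 2.22 and 2.65 on all arrays, below every array's lower quartile, and its differences carry little information. Peroxiredoxins, most of which reduce peroxides through thioredoxin, differed by -0.11 (PRDX3) to 0.47 (PRDX4 and PRDX6). With the DMSO array of passage 6 left out, GPX4 differed by -0.17, GPX7 by 0.30, PRDX3 by 0.07, PRDX1 by 0.30 in place of 0.11 and PRDX4 by 0.68. PRDX6, the 1-cysteine member, was at 9.68, 9.30 and 9.70 against 9.98, 10.18 and 9.93, higher in 3 of 3 passages (SE 0.16, limma adjusted p = 0.242). Among the enzymes that repair oxidised proteins, glutaredoxin GLRX was at 5.53, 5.01 and 5.42 against 5.93, 6.03 and 5.73 (0.58, SE 0.18, adjusted p = 0.169). MSRA, MSRB1 and the paraoxonase PON2 differed by -0.08 to 0.29.

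**Figure D1:**
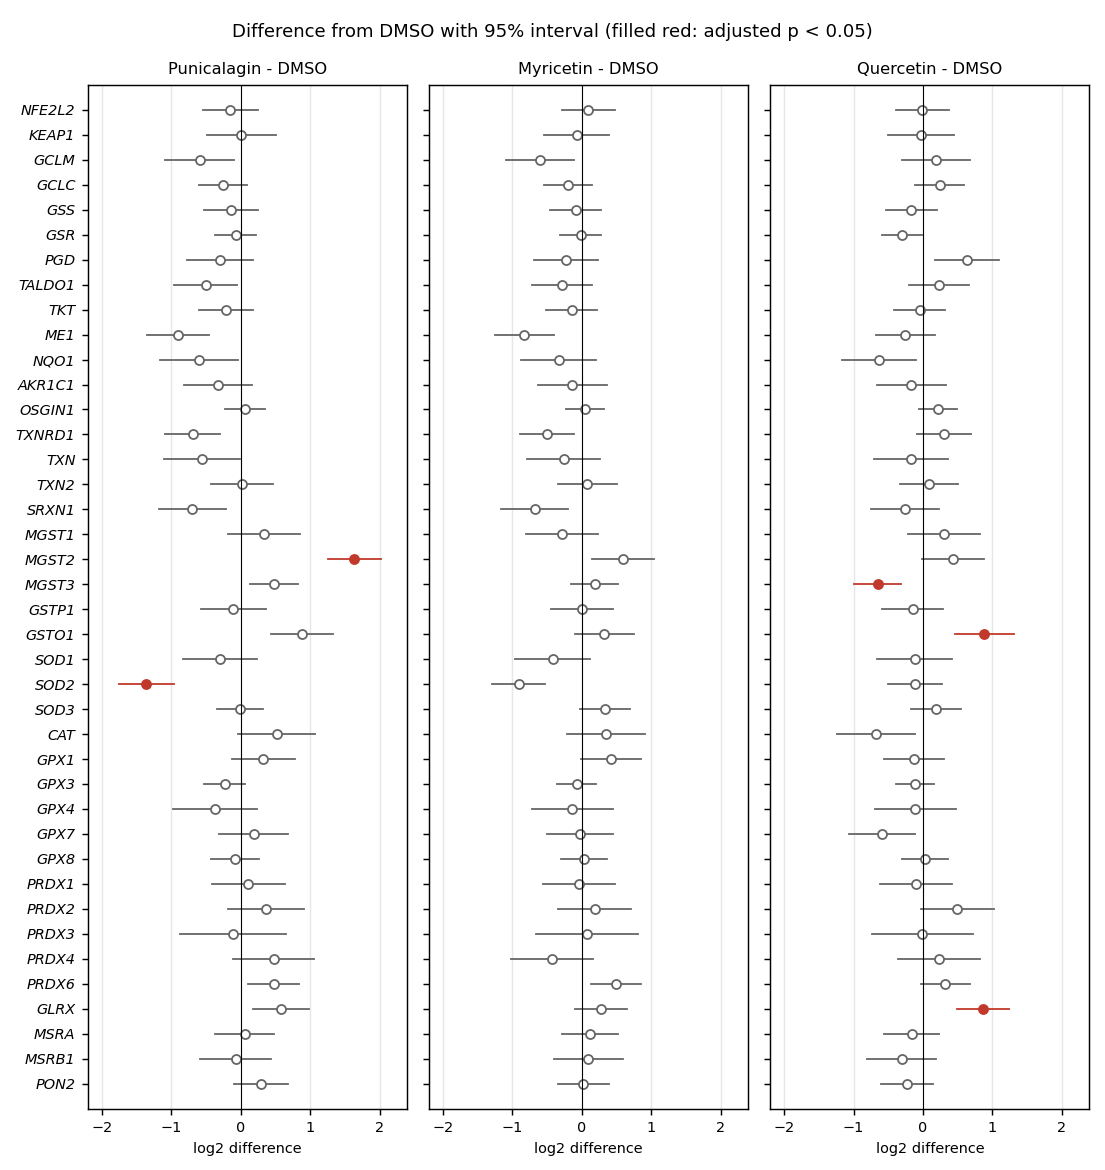
Difference from DMSO in log2 intensity (horizontal axis) for the 40 genes (rows) after punicalagin, myricetin and quercetin, with 95% intervals of limma and filled red points where the adjusted p was under 0.05. MGST2 and SOD2 are filled for punicalagin, none for myricetin, and MGST3, GSTO1 and GLRX for quercetin.

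Myricetin was compared with the same 3 DMSO arrays, so its values share that group's error. None of the 40 genes passed the test in either direction, while 0.438% of all clusters tested rose and 0.0707% fell. At an unadjusted p under 0.05 limma gave 7 genes (2 higher, 5 lower), and the methods' t-test gave 5 unadjusted and 0 adjusted. The median of the 40 genes was -0.03, against 0.00 over all clusters, and 35 lay within 0.5 of 0. Leaving out the DMSO array of passage 6 gave medians of 0.01 and 0.02. Of the 10 monocyte and macrophage markers 6 had a positive difference (median 0.10) and none passed, with 1 higher and 1 lower at an unadjusted p under 0.05 by limma. Weighting the arrays by quality gave 2 genes, ME1 and SOD2. SOD2 also passed without the DMSO array of passage 6 or the punicalagin array of passage 8, SOD2 and SRXN1 without the DMSO array of passage 8, and ME1 without the punicalagin array of passage 7.

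SOD2 and ME1 had the largest differences with myricetin. SOD2 was at 8.59 and 8.89 in the myricetin arrays of passages 7 and 8, below all 3 DMSO arrays. The difference was -0.91 (SE 0.18, 95% interval -1.30 to -0.52), with a limma adjusted p of 0.0522, and it was 0.0412 to 0.0478 without the DMSO array of passage 6 or 8 or the punicalagin array of passage 8. All 23 NF-kB-responsive genes had a negative difference from DMSO here (median -0.32), none past the test, 11 at an unadjusted p under 0.05 with limma and 2 with the methods' t-test, and their part in the value of SOD2 was not tested. Without the DMSO array of passage 6 the difference was negative in 19 of the 23 (median -0.22). ME1 was at 6.83 and 6.93, also below every DMSO array (-0.83, SE 0.19, adjusted p = 0.118). SRXN1 was at 5.06 and 4.73 (-0.68, adjusted p = 0.338), GCLM at 4.80 and 4.48 (-0.60, adjusted p = 0.443) and TXNRD1 at 8.32 and 8.11 (-0.50, adjusted p = 0.404). None of these 3 genes passed, and their differences were -0.49, -0.45 and -0.36 without the DMSO array of passage 6. On the higher side MGST2 was at 7.60 and 7.22 (0.59, SE 0.20, adjusted p = 0.369) and PRDX6 at 10.19 and 9.92 (0.50, SE 0.16, adjusted p = 0.347). NFE2L2 (0.09), KEAP1 (-0.08), GCLC (-0.20) and NQO1 (-0.33) overlapped with DMSO. With that DMSO array left out NFE2L2 differed by 0.16, KEAP1 by 0.12 and NQO1 by -0.19.

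Quercetin, compared with the same DMSO arrays, moved 3 of the 40 genes past the test: GSTO1 and GLRX rose and MGST3 fell. Over all clusters tested 2.8% rose and 1.13% fell. The median of the 40 genes was -0.07, against -0.04 over all clusters, and 33 lay within 0.5 of 0. Leaving out the DMSO array of passage 6 gave medians of 0.08 and -0.02. No call remained without either quercetin array, and GLRX alone passed without the DMSO array of passage 7 or 8 or either myricetin array. With the arrays of these 2 groups alone GSTO1 passed, and with all 33297 clusters tested GLRX. Without the DMSO array of passage 6 GSTO1, GLRX and MGST3 all passed (adjusted p = 0.00462 to 0.0251). Of the 10 monocyte and macrophage markers 8 had a positive difference (median 0.22), with 2 higher and 1 lower at an unadjusted p under 0.05. CD68 passed and rose by 1.13, and the part of these markers in the results was not tested.

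GSTO1 was at 6.70 and 6.84 in the quercetin arrays of passages 7 and 8, against 5.74 to 5.99 in DMSO. The rise was 0.89 (SE 0.19, 95% interval 0.46 to 1.31), or 1.85-fold (limma adjusted p = 0.0257), and the difference with punicalagin had been 0.88. GLRX, which removes glutathione from oxidised proteins, was at 6.24 and 6.14 against 5.01 to 5.53. It rose by 0.87 (SE 0.17, 95% interval 0.50 to 1.25), or 1.83-fold (adjusted p = 0.0143). Both genes lay above every DMSO array. MGST3 was at 6.63 and 6.90 against 7.30 to 7.60 and fell by 0.65 (SE 0.15, 95% interval -0.99 to -0.32, adjusted p = 0.0365), while its difference with punicalagin had been positive.

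No other of the 40 genes passed with quercetin. PGD, which makes NADPH in the pentose phosphate pathway, was at 10.00 and 10.09 against 9.16 to 9.62 (0.63, SE 0.21, limma adjusted p = 0.146), above every DMSO array. TXNRD1 at 9.15 and 8.90 (0.31), GCLC at 8.79 and 8.58 (0.24) and GCLM at 5.44 and 5.43 (0.19) overlapped with DMSO. NQO1 was at 6.88 and 6.70, below every DMSO array (-0.63, SE 0.24, adjusted p = 0.234), and SRXN1 at 5.44 and 5.20 overlapped (-0.26). Without the DMSO array of passage 6 the difference was -0.06 for SRXN1 and 0.34 for GCLM. Catalase at 6.42 and 6.70 (-0.68, SE 0.26, adjusted p = 0.221) and GPX7, a peroxidase of the endoplasmic reticulum, at 4.70 and 4.93 (-0.59, SE 0.22, adjusted p = 0.198) were below every DMSO array. Glutathione reductase GSR was at 8.26 and 8.30 against 8.49 to 8.67 (-0.29, SE 0.13, adjusted p = 0.324). PRDX2 was at 6.15 and 6.35 against 5.52 to 5.97 (0.50, SE 0.24, adjusted p = 0.379). SOD2, at 9.54 in both quercetin arrays, lay inside the DMSO range (-0.11, 95% interval -0.50 to 0.27), as did both arrays of KEAP1 (-0.03). For NFE2L2 the difference was -0.01, with 1 quercetin array below the DMSO range. With the DMSO array of passage 6 left out these differences were 0.01 for SOD2, 0.17 for KEAP1 and 0.06 for NFE2L2.

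**Figure D2:**
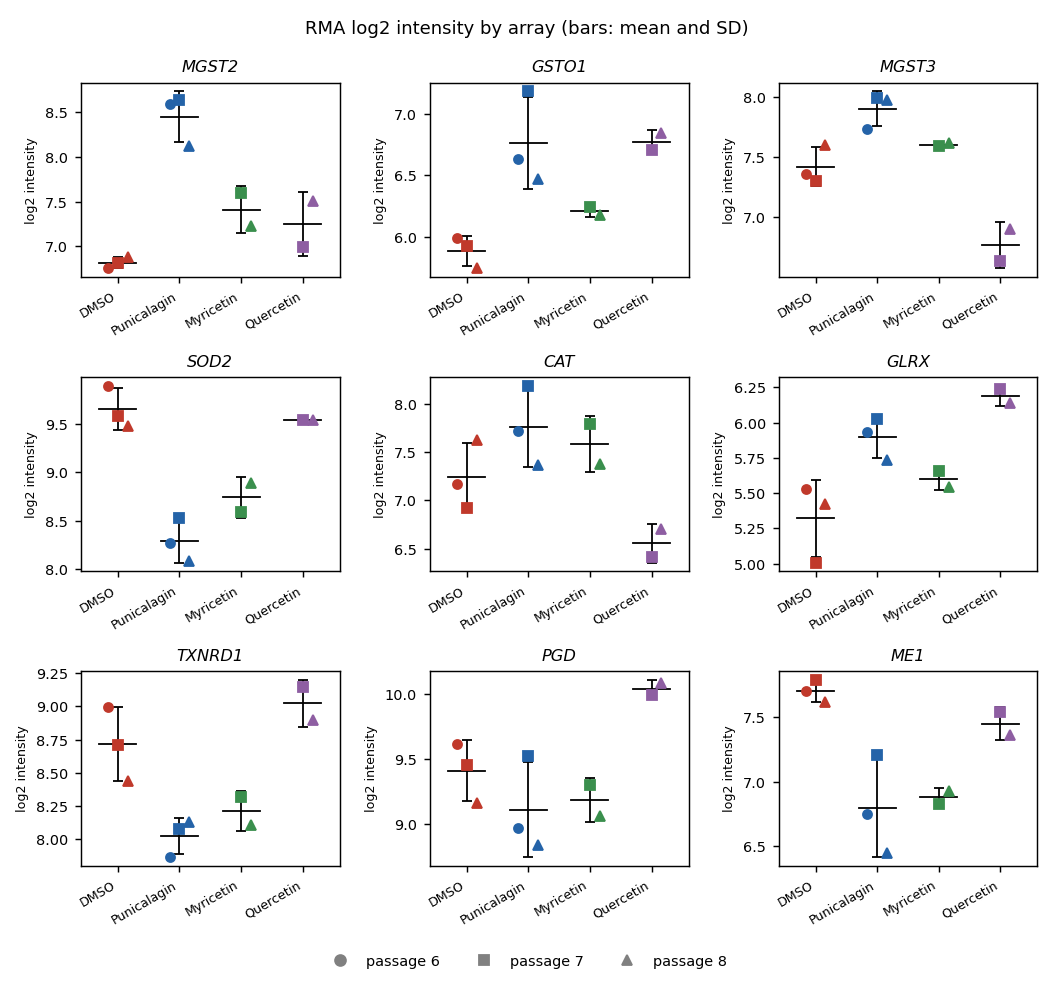
Log2 intensity (vertical axis) of 9 genes on each of the 10 arrays by treatment, with symbols for the passage, a line at the mean and bars of 1 SD (n = 3 for DMSO and punicalagin, n = 2 for the flavonols). The 3 punicalagin arrays of MGST2 lie above all others and those of SOD2 below all others, and both quercetin arrays of PGD lie above all others.

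The compounds were then compared with each other, in 3 pairs with 40 genes each and p adjusted over all 21214 clusters within a pair. Punicalagin and quercetin differed in 6 genes. MGST2, MGST3 and catalase were higher after punicalagin, and PGD, TXNRD1 and SOD2 were lower. Over all clusters tested 2.06% were higher and 1.85% lower. The median of the 40 genes was -0.11 and that of all clusters -0.01. Without the quercetin array of passage 7 none of the 6 passed, and without that of passage 8 only 3 genes did. PGD was also lost without the punicalagin array of passage 6 or 8 or either myricetin array (adjusted p = 0.0543 to 0.109), and catalase without the punicalagin array of passage 6 or 7 (adjusted p = 0.0758 and 0.071).

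PGD makes NADPH and TXNRD1 spends it on thioredoxin, but NADPH itself was not measured. TXNRD1 was at 7.87, 8.08 and 8.13 after punicalagin and at 9.15 and 8.90 after quercetin. The groups did not overlap, and the difference was -1.0 (SE 0.18, 95% interval -1.39 to -0.61), a 2-fold lower level (limma adjusted p = 0.0108). PGD was at 8.97, 9.52 and 8.84 against 10.00 and 10.09 (-0.93, SE 0.21, 95% interval -1.39 to -0.48, adjusted p = 0.0307). ME1 and the pentose phosphate enzymes PGD, TALDO1 and TKT all had a negative difference (median -0.69). TALDO1 was at -0.73 (adjusted p = 0.0683) and ME1 at -0.65 (adjusted p = 0.0999). GCLM (-0.78, adjusted p = 0.0852) and GCLC (-0.50, adjusted p = 0.124) lay on the same side and missed the threshold. Relative to DMSO, TXNRD1 and PGD lay on opposite sides with the 2 compounds, and in neither comparison with DMSO did they pass.

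SOD2 was 2.38-fold lower after punicalagin than after quercetin (-1.25, SE 0.18, limma adjusted p = 0.00361). MGST2 was 2.30-fold higher (1.20, SE 0.20, adjusted p = 0.00832), MGST3 2.20-fold higher (1.13, SE 0.15, adjusted p = 0.00271) and catalase 2.29-fold higher (1.20, SE 0.26, adjusted p = 0.0258). No punicalagin array of these 4 genes overlapped with a quercetin array. Of the 23 NF-kB-responsive genes 9 were lower after punicalagin than after quercetin and none higher, and their part in the value of SOD2 was not tested. Over all clusters tested 1.85% were lower and 2.06% higher. With quercetin against DMSO 2 of the 23 rose and none fell, while 2.8% of all clusters tested rose and 1.13% fell. There 14 of the 23 had a positive difference (median 0.15), and SOD2 differed by -0.11. Without the DMSO array of passage 6 these were 16 of the 23 (median 0.27) and 0.01. For GSTO1, which was above DMSO with both compounds, the difference between them was -0.01 (95% interval -0.43 to 0.41). For NFE2L2 the difference was -0.14 (95% interval -0.53 to 0.24) and for NQO1 0.03 (95% interval -0.51 to 0.57).

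Between the related flavonols, MGST3 was the single gene of the 40 past the test, at 7.59 and 7.61 after myricetin and at 6.63 and 6.90 after quercetin. The difference of 0.83 (SE 0.17, 95% interval 0.47 to 1.20), 1.78-fold, had a limma adjusted p of 0.0319, and no other gene was higher or lower. Over all clusters 0.537% were higher and 1.16% lower. The call was lost without any 1 of the 4 arrays of these groups (adjusted p = 0.128 to 0.297). The DMSO and punicalagin arrays enter here only through the shared spread. Of the 40 genes 4 passed without the DMSO array of passage 6, 2 without that of passage 8 and 2 without the punicalagin array of passage 7. A fit on the 4 flavonol arrays alone gave 14. The share of all clusters called in those fits is not given here, so these counts describe the fits and not the 40 genes. TXNRD1 (-0.81, adjusted p = 0.0662), SOD2 (-0.80, adjusted p = 0.0662), PGD (-0.86, adjusted p = 0.0924), GCLM (-0.79, adjusted p = 0.153) and catalase (1.02, adjusted p = 0.102) missed the threshold. For MGST2 the difference was 0.16 (95% interval -0.32 to 0.65), for NFE2L2 0.10 (95% interval -0.32 to 0.52) and for KEAP1 -0.05 (95% interval -0.56 to 0.47).

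Punicalagin and myricetin differed in none of the 40 genes by limma, with 5 at an unadjusted p under 0.05 (4 higher, 1 lower). The methods' t-test gave 2 unadjusted and 0 adjusted. Over all clusters 0.519% were higher and 0.00943% lower. MGST2 came closest, with all 3 punicalagin arrays above both myricetin arrays (1.04, SE 0.20, 95% interval 0.60 to 1.48, adjusted p = 0.0507). It passed without the DMSO array of passage 6 (adjusted p = 0.0304) or the punicalagin array of passage 8 (adjusted p = 0.0189). PRDX4 differed by 0.90 (SE 0.27, adjusted p = 0.211). TXNRD1 (-0.19), SRXN1 (-0.02), GCLM (0.01) and ME1 (-0.08) had small differences, with 95% intervals that lay between -0.58 and 0.50.

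**Figure D3:**
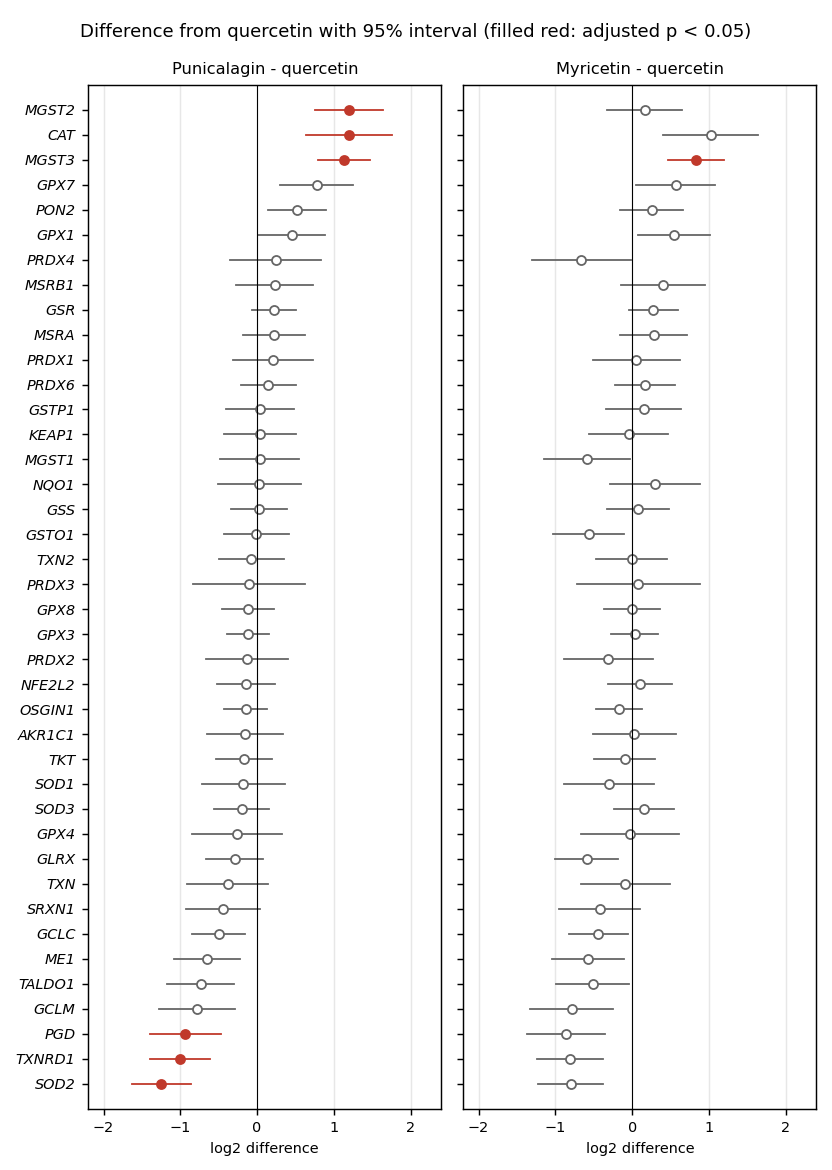
Difference from quercetin in log2 intensity (horizontal axis) for the 40 genes (rows), for punicalagin on the left and myricetin on the right, with 95% intervals of limma and filled red points where the adjusted p was under 0.05. SOD2, TXNRD1 and PGD are the lowest rows for punicalagin, and MGST3 is the filled row for myricetin.

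Genes of the same pathway outside the 42 were read from lists of other NRF2 targets (28 of 33 measured), partners and regulators of NRF2 (13 of 14) and other antioxidant enzymes (24 of 24). With punicalagin none of the 28 other targets passed, 2 having an unadjusted p under 0.05 by limma and 0 by the methods' t-test, and their median was -0.05. One partner rose, NFE2L1, which encodes the related factor NRF1. It was at 7.97, 7.61 and 7.90 in DMSO and at 9.59, 9.62 and 8.77 after punicalagin. All punicalagin arrays lay above all DMSO arrays, and the rise was 1.50 (SE 0.24), 2.82-fold (adjusted p = 0.0155). It was lost without the DMSO array of passage 7 (adjusted p = 0.0786) or the punicalagin array of passage 6 or 7 (adjusted p = 0.0899 and 0.102). OXR1, an oxidation resistance gene, was at 7.09, 7.73 and 7.36 against 8.35, 8.54 and 8.68 and rose by 1.13 (SE 0.19, adjusted p = 0.0189). Its call was lost without the DMSO array of passage 8 (adjusted p = 0.0533) or the punicalagin array of passage 6 or 7 (adjusted p = 0.0706 and 0.108).

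With quercetin 5 of the 28 other targets passed, 3 higher and 2 lower, with a median of 0.08 over the 28. Heme oxygenase HMOX1, which breaks down heme, was at 8.21 and 8.16 after quercetin against 7.41, 7.21 and 6.74 in DMSO. It rose by 1.07 (SE 0.23), 2.09-fold (limma adjusted p = 0.0233), and the call was lost without the DMSO array of passage 8 (adjusted p = 0.0607) or either quercetin array (adjusted p = 0.197 and 0.189). The cystine importer SLC7A11, which feeds glutathione synthesis, was at 9.36 and 9.25 against 7.38, 7.91 and 7.62 and rose by 1.67 (SE 0.29), 3.18-fold (adjusted p = 0.008). It was lost without either quercetin array (adjusted p = 0.104 and 0.0843). The conjugate exporter ABCC3 was at 9.32 and 9.20 against 7.52, 8.23 and 7.77 and rose by 1.42 (SE 0.19, adjusted p = 0.00156). All 3 genes lay above every other array of the series in both quercetin arrays.

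TIPARP, also known as a target of the aryl hydrocarbon receptor, fell with quercetin to 6.59 and 6.73 from 8.29, 8.55 and 8.31 in DMSO, by 1.72 (SE 0.20, limma adjusted p = 0.000578). Ferrochelatase FECH fell by 0.74 (SE 0.18, adjusted p = 0.0417), a call lost when any of 8 arrays was left out (adjusted p = 0.0503 to 0.289). OXR1 rose by 1.87 (SE 0.19), 3.65-fold (adjusted p = 0.00023), to 9.39 and 9.13. ABCC3, TIPARP and OXR1 passed without any 1 of the 10 arrays. None of the 13 partners passed with quercetin, 2 having an unadjusted p under 0.05 by limma and by the methods' t-test and 0 after adjustment. With myricetin no gene of these lists passed. At an unadjusted p under 0.05 limma gave 5 of the 28 targets, 1 of the 13 partners and 2 of the 24 enzymes, and the methods' t-test gave 3, 1 and 2, with 0 after adjustment. HMOX1 was at 7.28 and 7.14 after myricetin and at 7.12, 7.70 and 7.01 after punicalagin, with the myricetin arrays inside the DMSO range and 1 punicalagin array above it (0.09 and 0.15, and 0.23 and 0.30 without the DMSO array of passage 6).

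Between compounds, SLC7A11 was lower after punicalagin (-1.20, limma adjusted p = 0.0465) and after myricetin (-1.70, adjusted p = 0.0244) than after quercetin. ABCC3 was lower by 1.12 (adjusted p = 0.00912) and 1.02 (adjusted p = 0.0387), and TIPARP was higher by 1.20 (adjusted p = 0.00787) and 1.54 (adjusted p = 0.00529). HMOX1 was -0.91 from quercetin after punicalagin (adjusted p = 0.0503) and -0.98 after myricetin (adjusted p = 0.0804). TXNIP, which binds and blocks thioredoxin, was higher than with quercetin after punicalagin (0.84, adjusted p = 0.0257) and myricetin (0.93, adjusted p = 0.0411). GSTK1, a mitochondrial glutathione transferase, was higher after punicalagin than after quercetin (0.71, adjusted p = 0.0358), and OXR1 was lower after myricetin than after quercetin (-1.14, adjusted p = 0.0208). The pairs share the quercetin arrays, and each of these calls was lost without either of them (adjusted p = 0.0567 to 0.38). Most were also lost without other arrays. Of the 10 fits with 1 array left out, the punicalagin calls were lost in 7 for SLC7A11 and GSTK1, 6 for TXNIP and 2, those without a quercetin array, for ABCC3 and TIPARP. Leaving out any punicalagin array ended the SLC7A11 and GSTK1 calls (adjusted p = 0.0546 to 0.102). The myricetin calls were lost in 6 for ABCC3 and TXNIP, 4 for OXR1 and 3 for SLC7A11 and TIPARP. Leaving out the myricetin array of passage 7 ended all 5 of these (adjusted p = 0.0959 to 0.279).

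**Figure D4:**
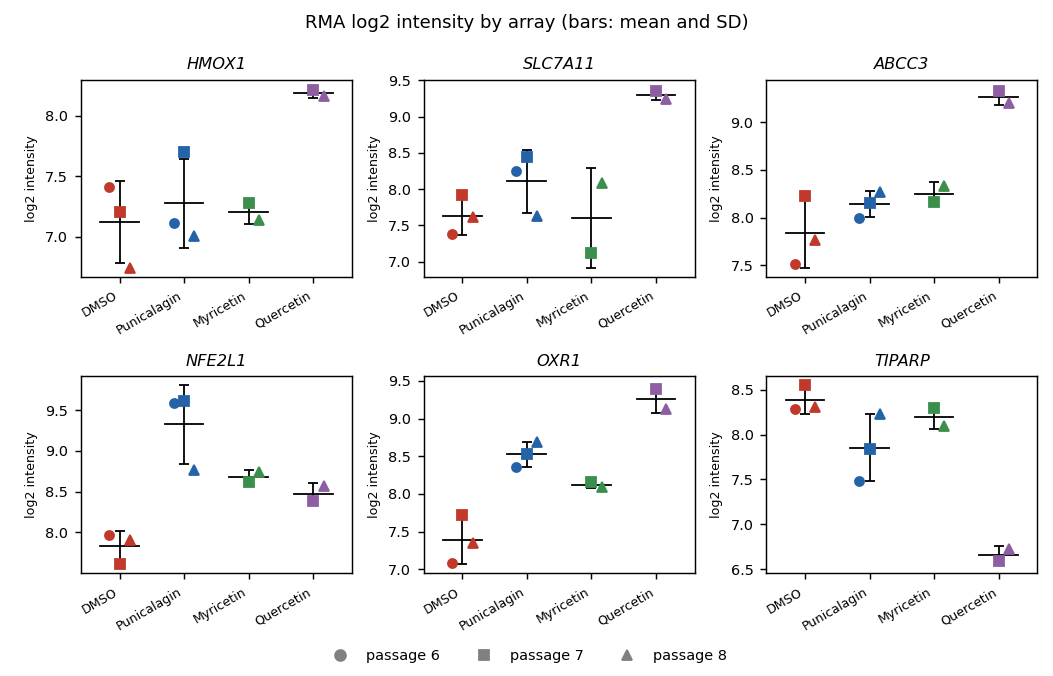
Log2 intensity (vertical axis) of 6 pathway genes outside the 42 on each of the 10 arrays by treatment, with symbols for the passage, a line at the mean and bars of 1 SD (n = 3 for DMSO and punicalagin, n = 2 for the flavonols). Both quercetin arrays lie above all others for HMOX1, SLC7A11, ABCC3 and OXR1 and below all others for TIPARP, and the 3 punicalagin arrays lie above all others for NFE2L1.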

How the data were processed

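RNA of PMA-differentiated THP-1 cells was hybridised to Affymetrix Human Gene 1.0 ST arrays. The values that the authors deposited are log2 intensities per transcript cluster after RMA (background correction, quantile normalization and probe summary). Affymetrix Expression Console, RMA and Partek 7.0 are listed in the processing notes of the submitters. The genome build of the probes, and whether 1 normalization covered the 10 arrays, are not given in the sources used here. No further normalization or filter on dim clusters was applied. Groups came from the labels. Of the 33297 clusters 19460 had 1 symbol, 1754 several and 12083 none.

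Differences were fitted with limma 3.58.1 (lmFit, eBayes) in R 4.3.3, two-sided, with Benjamini-Hochberg adjustment over the 21214 clusters with a symbol and a threshold of 0.05. Punicalagin and DMSO were fitted on their 6 arrays and the other pairs on all 10, sharing 1 spread. The scripts were tested on simulated data. Deviations of DMSO and punicalagin arrays from their group means correlated at 0.362, -0.0967 and 0.319 for arrays sharing passage 6, 7 and 8. Pairs from different passages ran from -0.442 (DMSO passage 6, punicalagin passage 8) to 0.331 (DMSO passage 7, punicalagin passage 8). Deviations within a group are linked through its mean, so these values do not show an effect of passage. The genes and lists were chosen with earlier results of these data known. Full values are given for called genes, for 7 regulators and classical targets and for the up to 2 largest differences of each role. Alternatives were passage as a block, other sets of arrays, spreads, centring and cluster filters, a plain t-test, and each array left out in turn.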

Additional observations from a re-analysis of the deposited data

How the results depend on the processing

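The count of the 40 genes past the test depended on the fit. The share of all clusters called in each alternative fit is not set beside it, so the counts describe the fits and not the 40 genes. For punicalagin against DMSO the count was 2. It became 4 with the replicate block (passage), 5 with all 10 arrays in 1 fit and 5 with array weights. It was 4 with dim clusters left out, 0 with the plain t-test adjusted and 2 to 3 with 1 array left out. MGST2 and SOD2 passed in each of these fits other than the adjusted t-test (adjusted p = 0.149 and 0.172). For myricetin against DMSO the count of 0 became 2 with array weights and 1 with dim clusters left out, and was 0 to 2 with 1 array left out. For quercetin against DMSO the count of 3 became 1 with the arrays of the 2 groups alone, 5 with array weights and 1 with all clusters tested. It was 0 with the plain t-test, either unadjusted with a 2-fold minimum or adjusted. For punicalagin against myricetin the count of 0 became 1, MGST2, with array weights, with arrays centred on their median, with dim clusters left out and with the unadjusted t-test, and was 0 to 1 with 1 array left out. For punicalagin against quercetin the count of 6 became 12 with array weights and 0 with the adjusted t-test, and was 0 to 9 with 1 array left out. For myricetin against quercetin the count of 1 became 14 with the arrays of the 2 groups alone, 4 at passages 7 and 8 only, with or without the block, 14 with array weights and 0 with all clusters tested or with either t-test, and was 0 to 4 with 1 array left out. No direction reversed among the results recomputed. The block on all arrays moved no other count by over 1.5 times. Why array weights and the smaller fits gave more calls was not tested. With 2 or 3 arrays a group the 95% intervals of the median gene reached 0.43 to 0.47 to either side, and 32 of the 40 genes were brighter than the median cluster.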
